A study of Arabidopsis thaliana with 9 samples.

Results

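OXmiR400, an Arabidopsis thaliana line with raised miR400, was compared with OXrPPR1, a line with raised PPR1, in whole seedlings after 6 h of 100 µM cadmium. The comparison holds 6 of the 9 RNA-seq libraries of the study, 3 per line, and all genes of the deposited expression table. They were chosen by their genotype labels, OXmiR400 for the titles with the line code YK2 and OXrPPR1 for those with 1C9. The other 3 libraries are wild type under the same cadmium treatment. They entered no test of the main comparison, and their values are given beside it as a description. All titles carry the prefix Colombia. The sources used here do not give the promoters of the transgenes, the number of independent transformants, the age of the seedlings or whether libraries came from separate cultures. Each genotype carries a single line code, so line and transgene cannot be told apart, and p-values cover the spread between these libraries alone, which may be technical. No library without cadmium was analysed, so no value below is an effect of the metal.

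Plant microRNAs are short RNAs cut from a hairpin precursor that guide the cleavage or silencing of transcripts with a closely complementary site. Pentatricopeptide repeat (PPR) proteins bind RNA in mitochondria and plastids, where they act in editing, splicing, cleavage and stability of organelle transcripts, and miR400 is known to target members of this family. The lines therefore differ in opposite arms of one regulatory pair, the microRNA in OXmiR400 and a target gene in OXrPPR1. Cadmium draws on cysteine and glutathione for chelation, and sulfate uptake and reduction supply both.

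The mature miR400 is printed first because its sequence defines the possible targets, with the seed (bases 2 to 8) in capitals. It was read from the RefSeq TAIR10.1 genome at chr1:11785947-11785967 on the plus strand.
miR400: uAUGAGAGuauuauaagucac
The 4 most complementary sites found in annotated transcripts follow, 5′ to 3′ along the transcript, with bases that pair with miR400 in capitals and mismatched or G-U wobble bases in lower case.
PPR1 (AT1G06580): GTGACTTATAATACTCTCATA
PPR2 (AT1G62720): GTGACTTATAATACTCTCATt
AT1G62590: GTtACaTATAATACTCTCATA
AT3G22470: GTGACTTATAgTAtTCTCATA
The PPR1 site lies at chr1:2014950-2014970 on the minus strand and pairs with the microRNA at every base, while the PPR2 site, at chr1:23228516-23228536 on the plus strand, leaves 1 base unpaired. Both lie in coding sequence.

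The loci named by the labels separated the lines. MIR400 (AT1G32582), the precursor, at 11785936 to 11786037 on the plus strand of chromosome 1, lies inside the first intron of its host gene AT1G32583. MIR400 was listed at 953, 684 and 629 FPKM (read density scaled to exon length and library size) in OXmiR400, against 0.348, 0.241 and 0 FPKM in OXrPPR1. The lines did not overlap. In limma the log2 fold change was 9.29 ± 0.18 (SE, adjusted p = 1.54e-07). With OXrPPR1 so near 0, its size is set largely by the pseudocount, and it was 11.55 with a pseudocount of 0.1. A fold change here is OXmiR400 minus OXrPPR1 on the log2(FPKM + 1) scale, and adjusted p-values are Benjamini-Hochberg adjusted over all genes tested. The same precursor is listed again under a second identifier with nearly the same OXmiR400 values.

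The host gene AT1G32583, whose product is a tapetum determinant protein, had 2.89, 3.14 and 3.56 FPKM in OXmiR400, against 3.16, 3.06 and 2.12 FPKM in OXrPPR1. The lines overlapped, and the log2 fold change of 0.16 ± 0.17 (SE) did not pass (adjusted p = 0.902). PPR1 had 2.56, 2.102 and 1.34 FPKM in OXmiR400, against 25.5, 24.7 and 21.9 FPKM in OXrPPR1, with 2.40, 2.17 and 2.54 FPKM in wild type. It was 12.01-fold lower in OXmiR400 by the line means, and its log2 fold change was -3.08 ± 0.17 (SE, adjusted p = 0.000194). The OXmiR400 range takes in all 3 wild type values and lies far under OXrPPR1. Transgene and endogenous PPR1 reads cannot be told apart in these values. PPR2, a second PPR gene targeted by miR400, had 0.452, 0.516 and 0.434 FPKM in OXmiR400, against 0.681, 0.515 and 0.649 FPKM in OXrPPR1. It lay under the expression filter of a mean of 1 FPKM in either line. Fitted with no filter, its log2 fold change was -0.14 ± 0.09 (SE, adjusted p = 0.826), and 1 OXrPPR1 library fell within the OXmiR400 range.

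**Figure D1:**
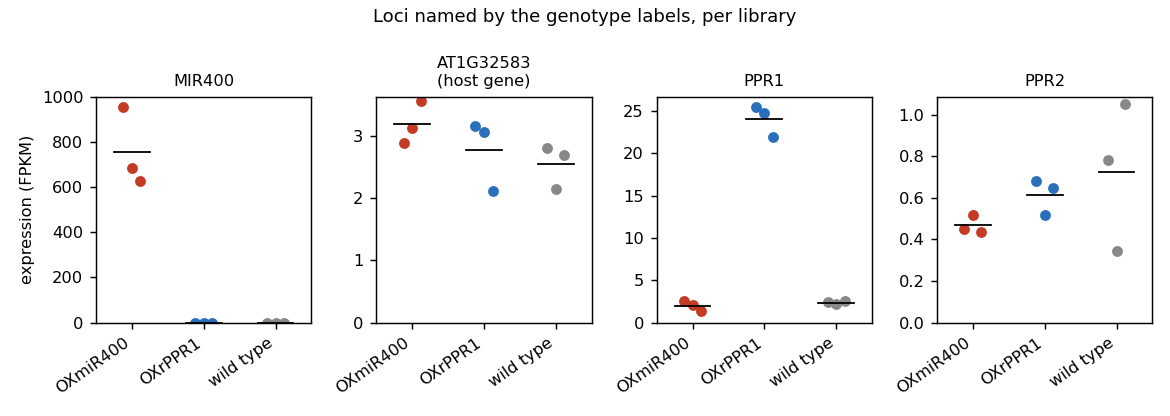
Expression in FPKM (vertical axis, a separate scale in each panel, starting at 0) of MIR400, its host gene, PPR1 and PPR2 in OXmiR400, OXrPPR1 and wild type; points are libraries and lines are means. MIR400 is high in the 3 OXmiR400 libraries alone (629 to 953 FPKM) and PPR1 in the 3 OXrPPR1 libraries alone (21.9 to 25.5 FPKM).

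Library depth, estimated from the smallest increments among low values, was 17.1, 15.6 and 16.4 M (mega) units in OXmiR400 and 21.1, 20.4 and 19.3 M units in OXrPPR1. Each unit was assumed to be 1 sequenced read or fragment. By this estimate each OXrPPR1 library was deeper than each OXmiR400 library, and the part of this in the results was not tested. On the second principal component of the 6 libraries (25.6% of the variance) OXrPPR1 replicate 3 stood apart, at 40.5 with the others between -22.9 and 5. Its correlation across genes was 0.9643 and 0.9614 to its own line and 0.9681, 0.9577 and 0.9703 to wild type replicates 1, 2 and 3. OXrPPR1 replicate 1 likewise correlated more with a wild type library (replicate 2, 0.9744) than with its own line (0.9712 and 0.9643). Correlations across genes, which are not independent replicates, were 0.976 to 0.980 within OXmiR400, 0.961 to 0.971 within OXrPPR1 and 0.956 to 0.973 between the lines. Markers of leaf and of root, as a seedling should hold, were present in every library. The 12 leaf mesophyll and guard cell markers summed to 6854, 8783 and 7365 FPKM in OXmiR400, against 6083, 7302 and 5827 FPKM in OXrPPR1. The 15 root markers summed to 147, 155 and 145 FPKM in OXmiR400, against 236.5, 175 and 233 FPKM in OXrPPR1. The 11 seed storage and oil body markers summed to at most 1.90 FPKM in OXmiR400 and to 10.4, 5.31 and 0.312 FPKM in OXrPPR1, with the seed storage genes SESA1 and SESA3 at 0 throughout.

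Of 19757 genes tested, 24 were called at adjusted p under 0.05, which is 0.121%, and at unadjusted p under 0.05 there were 1567 genes, 7.93%. Of the 24, 9 were higher in OXmiR400 (0.0456% of genes tested) and 15 were lower (0.0759%). Counting MIR400 once leaves 23 loci. In all 24 the libraries of the lines did not overlap, as in 13.3% of all genes tested, and the log2 fold change was at least 1 in size. The median log2 fold change of all genes tested was 0.002. For 13 of the 23 loci all 3 wild type libraries lay nearer to OXrPPR1, that is, on its side of the midpoint of the line means on the log2 scale. For 3, AT3G01345, PPR1 and AT3G05945, all lay nearer to OXmiR400, and for 7 the wild type libraries were split. MIR400, among the 13, and PPR1 are the genes raised in the lines, so their positions were set by the design. The same count was not made over all genes tested. Calls were found on all 5 nuclear chromosomes, with 8 on chromosome 1, 2 on chromosome 2, 7 on chromosome 3, 4 on chromosome 4 and 2 on chromosome 5. In that order these were 0.154%, 0.0671%, 0.181%, 0.133% and 0.0437% of the genes tested on each chromosome.

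**Figure D2:**
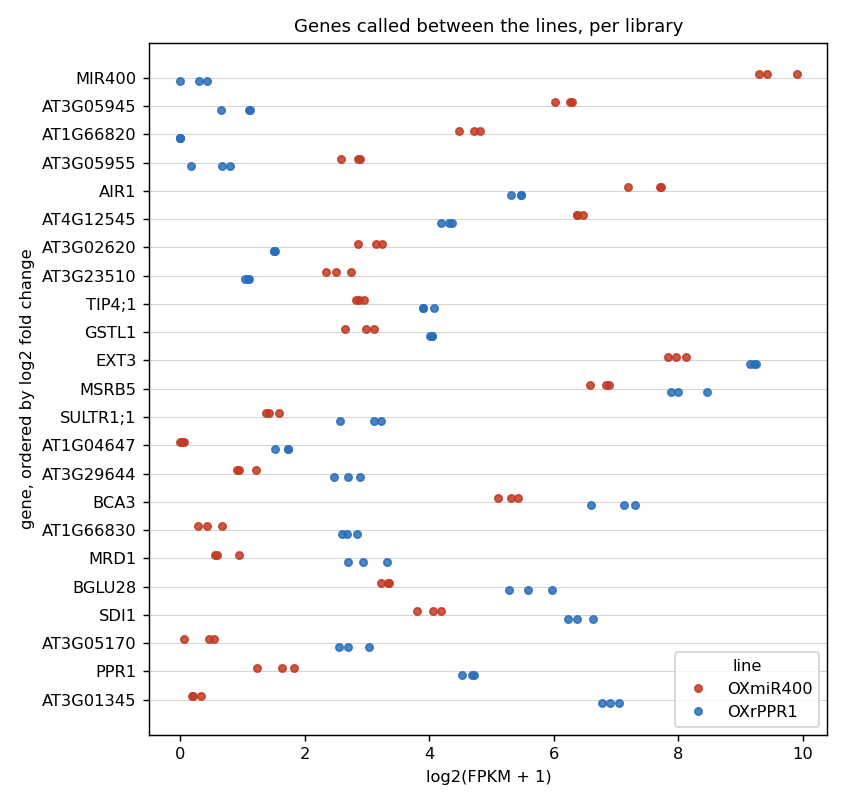
Expression as log2(FPKM + 1) (horizontal axis) of the 23 called loci, ordered by log2 fold change, in the 3 OXmiR400 libraries (red, upper row of each gene) and the 3 OXrPPR1 libraries (blue, lower row). The 8 loci at the top are higher in OXmiR400 and the 15 at the bottom lower, with no overlap of the lines in any.

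Of the sulfur-responsive genes, 3 fell in OXmiR400. SDI1 (AT5G48850), a tetratricopeptide repeat gene induced by sulfur deficiency that restrains glucosinolate synthesis, had 15.6, 17.2 and 12.9 FPKM in OXmiR400, against 73.9, 97.8 and 82.15 FPKM in OXrPPR1. It was 5.555-fold lower by the means, with no overlap (log2 fold change -2.40 ± 0.14, SE, adjusted p = 0.000298). BGLU28 (AT2G44460), a beta-glucosidase induced by the same deficiency, had 9.11, 8.39 and 9.26 FPKM in OXmiR400, against 37.8, 61.9 and 47.0 FPKM in OXrPPR1. The OXmiR400 libraries lay within 1 FPKM of each other and all under OXrPPR1 (log2 fold change -2.30 ± 0.17, SE, adjusted p = 0.00138). SULTR1;1 (AT4G08620), a high-affinity transporter for sulfate uptake by roots, had 1.60, 2.02 and 1.69 FPKM in OXmiR400, against 4.91, 7.61 and 8.34 FPKM in OXrPPR1. Its lines did not overlap (log2 fold change -1.50 ± 0.20, SE, adjusted p = 0.0453), and the call was kept under 3 of 16 alternative settings. Wild type libraries spread widely in all of these, with SDI1 at 162, 63.9 and 219 FPKM and BGLU28 at 72.3, 27.4 and 126 FPKM.

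These are 3 of the 27 tested members of a list of sulfate assimilation and sulfur deficiency genes, of which 0 rose, 3 fell and 24 were not called. The list's median log2 fold change was -0.54, beside 0.002 over all genes tested, and 23 members lay below 0. In 15 of the 27, 55.6%, every OXmiR400 library was under every OXrPPR1 library, a pattern found in 7.31% of all genes tested. The root markers, whose sums were also lower in every OXmiR400 library, moved with the list, and their part in it was not tested. Fewer cells of a type and less RNA per cell cannot be told apart in whole seedlings.

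Among the sulfate transporters not called, SULTR1;2 (AT1G78000), the other main root uptake transporter, had 25.2, 27.7 and 27.3 FPKM in OXmiR400, against 52.4, 57.8 and 42.7 FPKM in OXrPPR1. Its lines did not overlap and its adjusted p was 0.0596. SULTR4;2 (AT3G12520), which releases sulfate from the vacuole, had 7.48, 8.16 and 8.30 FPKM in OXmiR400, against 14.6, 23.4 and 18.23 FPKM in OXrPPR1 (adjusted p = 0.0759). SULTR2;1, SULTR4;1 and SULTR2;2, a set of vascular and vacuolar transporters, had smaller log2 fold changes of -0.68, -0.47 and -0.36, and the lines overlapped in SULTR2;2.

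The enzymes of sulfate reduction had smaller fold changes, none of them called. ATP sulfurylase, APS reductase and sulfite reductase take sulfate to sulfide in turn. APS1 (AT3G22890) had 93.0, 121.5 and 124 FPKM in OXmiR400, against 132, 186.5 and 179.7 FPKM in OXrPPR1. The APS reductases APR1, APR2 and APR3 had log2 fold changes of -0.71, -0.54 and -0.67, with lines that did not overlap in APR1 and APR3. Sulfite reductase, SIR, stood at -0.18. Of the enzymes after sulfide, SERAT3;2, a serine acetyltransferase, stood at -0.76 with no overlap of the lines. The others were nearer 0, with OASA1, OASB and OASC, which make cysteine, at 0.12, -0.21 and 0.06 and the glutathione synthesis genes GSH1 and GSH2 at 0.01 and -0.10. None of these enzymes was called (adjusted p = 0.343 to 0.996).

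Other genes of the list were split. LSU2 (AT5G24660), one of a small family named for its response to low sulfur, had 38.0, 33.4 and 23.55 FPKM in OXmiR400, against 79.2, 81.1 and 67.1 FPKM in OXrPPR1 (adjusted p = 0.0604). LSU3 (AT3G49570) had 24.3, 19.3 and 16.0 FPKM in OXmiR400, against 40.5 to 56.6 FPKM in OXrPPR1 (adjusted p = 0.0596). The lines did not overlap in either, and neither was called. LSU1 (AT3G49580) had 12.8, 21.0 and 20.4 FPKM in OXmiR400, against 1.11, 107.6 and 1.22 FPKM in OXrPPR1, so that OXrPPR1 replicate 2 alone stood above OXmiR400 and the other OXrPPR1 libraries below it. LSU1 and LSU3 are neighbours on chromosome 3. GGCT2;1 (AT5G26220), a ChaC-like gene of glutathione breakdown, had 14.0, 7.67 and 8.96 FPKM in OXmiR400, against 18.3, 30.6 and 34.6 FPKM in OXrPPR1 (adjusted p = 0.289). SLIM1, a transcription factor of the sulfur response, was nearly level at -0.04.

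**Figure D3:**
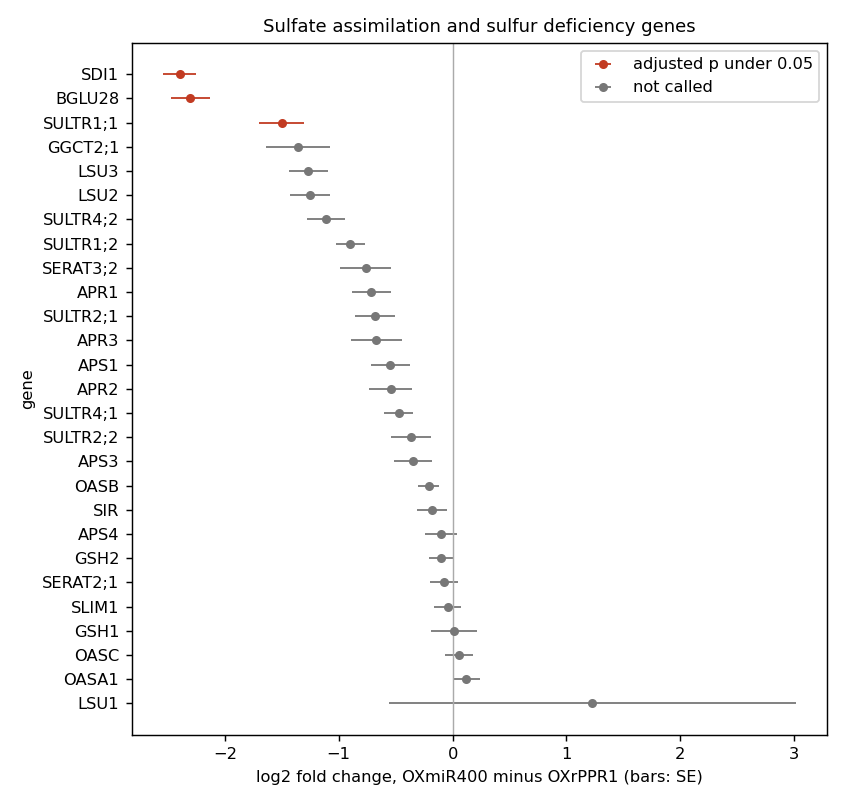
Log2 fold change (OXmiR400 minus OXrPPR1, horizontal axis) of the 27 tested sulfate assimilation and sulfur deficiency genes; bars are standard errors, and red points passed the test. SDI1, BGLU28 and SULTR1;1 lead, 23 of 27 lie left of 0, and LSU1 has by far the widest bar.

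The 250 bases before the annotated starts of the 3 called sulfur genes were searched for GAGAC, the core of a sulfur-responsive promoter element, on both strands (GTCTC on the other), and are printed from the RefSeq TAIR10.1 genome, 5′ to 3′ toward the gene, with matches in capitals. They lie at chr5:19807854-19808103 on the minus strand, chr2:18346056-18346305 on the plus strand and chr4:5500063-5500312 on the plus strand.
SDI1: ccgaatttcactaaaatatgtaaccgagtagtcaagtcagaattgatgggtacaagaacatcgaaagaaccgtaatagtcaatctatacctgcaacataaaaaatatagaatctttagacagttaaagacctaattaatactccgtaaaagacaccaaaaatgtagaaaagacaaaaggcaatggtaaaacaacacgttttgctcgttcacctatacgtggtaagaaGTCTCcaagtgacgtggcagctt
BGLU28: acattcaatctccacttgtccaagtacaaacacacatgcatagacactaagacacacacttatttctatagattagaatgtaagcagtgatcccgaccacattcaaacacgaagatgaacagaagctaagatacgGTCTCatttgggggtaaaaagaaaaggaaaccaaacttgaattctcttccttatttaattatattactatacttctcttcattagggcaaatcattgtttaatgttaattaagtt
SULTR1;1: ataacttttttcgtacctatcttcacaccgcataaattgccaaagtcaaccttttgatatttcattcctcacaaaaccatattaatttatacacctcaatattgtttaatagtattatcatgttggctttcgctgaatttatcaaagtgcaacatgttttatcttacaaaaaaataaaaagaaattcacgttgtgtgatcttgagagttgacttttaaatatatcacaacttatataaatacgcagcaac
The SDI1 and BGLU28 windows held 1 match each and the SULTR1;1 window 0. Sequence further upstream was not searched, so 0 matches in a window do not show that a gene lacks the element. Matches were found in the windows of 5 of the 27 list members, 18.5%, and of 25.1% of the 18886 tested protein-coding genes with a window. Within these 250 bases, the share in the list was below that of all tested genes.

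Outside the sulfate list, further named genes were called lower in OXmiR400. MRD1 (AT1G53480), named for its low level in a mutant that overaccumulates methionine, had 0.481, 0.501 and 0.929 FPKM in OXmiR400, against 5.49, 8.95 and 6.63 FPKM in OXrPPR1 (log2 fold change -2.28 ± 0.20, SE, adjusted p = 0.00473). It overlaps HEI10 and AT1G07887 on the opposite strand, and reads may be shared. MSRB5 (AT4G04830), which reduces oxidised methionine, had 117, 113 and 94.8 FPKM in OXmiR400, against 235, 349 and 253 FPKM in OXrPPR1 (log2 fold change -1.34 ± 0.17, SE, adjusted p = 0.0341). Neither gene's lines overlapped.

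BCA3 (AT1G23730), a beta carbonic anhydrase, had 42.0, 33.6 and 38.55 FPKM in OXmiR400, against 95.8, 156.5 and 139 FPKM in OXrPPR1 (log2 fold change -1.73 ± 0.18, SE, adjusted p = 0.0135). EXT3 (AT1G21310), an extensin of the cell wall and the most abundant of the called genes by FPKM in OXrPPR1, had 277, 247 and 228 FPKM in OXmiR400, against 566.5, 608 and 589.6 FPKM in OXrPPR1. It was 2.34-fold lower by the means (adjusted p = 0.00808), with lines far apart relative to their spread. GSTL1 (AT5G02780), a glutathione transferase of the lambda class, had 6.89, 5.27 and 7.69 FPKM in OXmiR400, against 15.2, 15.5 and 15.5 FPKM in OXrPPR1 (adjusted p = 0.0341). TIP4;1 (AT2G25810), a water channel of the vacuolar membrane, had 6.71, 6.32 and 6.11 FPKM in OXmiR400, against 14.0, 14.0 and 15.85 FPKM in OXrPPR1 (adjusted p = 0.0107). Both were a little over 2-fold lower, with log2 fold changes of -1.12 and -1.08.

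The largest negative fold change was that of AT3G01345, an expressed protein with no assigned function, at 129138 to 130749 on the plus strand of chromosome 3. It had 0.145, 0.1595 and 0.2655 FPKM in OXmiR400, against 109, 118 and 131 FPKM in OXrPPR1, and 0, 0.045 and 0.174 FPKM in wild type. Only the OXrPPR1 libraries held the transcript at a level over 1 FPKM (log2 fold change -6.66 ± 0.12, SE, adjusted p = 5.91e-08). AT3G05170, a phosphoglycerate mutase family gene, had the opposite pattern in wild type. It had 0.454, 0.382 and 0.044 FPKM in OXmiR400, against 5.475, 4.89 and 7.17 FPKM in OXrPPR1 and 5.27, 3.71 and 6.00 FPKM in wild type (log2 fold change -2.405 ± 0.20, SE, adjusted p = 0.00309). The noncoding RNAs AT3G29644 and AT1G04647 were also lower, at log2 fold changes of -1.66 and -1.63 (adjusted p = 0.0111 each). AT3G29644 averaged 1.04 ± 0.24 FPKM in OXmiR400 and 5.48 ± 0.96 FPKM in OXrPPR1, and AT1G04647 averaged 0.023 ± 0.022 FPKM in OXmiR400 and 2.17 ± 0.26 FPKM in OXrPPR1 (SD, n = 3).

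A pair of lipid transfer protein genes rose in OXmiR400. Such proteins are small secreted proteins that carry lipids or act at the cell wall. AIR1 (AT4G12550), first found in root cultures treated with auxin, had 207, 210.3 and 145 FPKM in OXmiR400, against 38.6, 43.55 and 43.4 FPKM in OXrPPR1 (log2 fold change 2.12 ± 0.16, SE, adjusted p = 0.00138). AT4G12545 had 88.0, 81.7 and 81.6 FPKM in OXmiR400, against 18.9, 19.7 and 17.2 FPKM in OXrPPR1 (log2 fold change 2.12 ± 0.10, SE, adjusted p = 5.32e-05). They lie on the plus strand of chromosome 4, 4256 bases apart, and both were 4.5-fold higher by the means with no overlap of the lines. Wild type was split, with AIR1 at 76.6, 22.5 and 94.5 FPKM. Other genes of this tandem group lie on the minus strand beside them and were not called: AZI1, EARLI1 and AT4G12510 had lines that overlapped, and AT4G12520 had 13.8, 18.3 and 14.1 FPKM in OXmiR400, against 33.6, 31.9 and 19.4 FPKM in OXrPPR1. AT4G12543, on the minus strand, overlaps AT4G12545. How reads common to similar or overlapping members were assigned is not known here.

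Another 2 genes called higher, AT3G02620 and AT3G23510, have product names of fatty acid or lipid modification. They come from the calls, not from a list of such genes. AT3G02620, of the stearoyl-acyl-carrier-protein desaturase family, whose enzymes place a double bond in a fatty acid chain, had 8.49, 7.85 and 6.28 FPKM in OXmiR400, against 1.87, 1.84 and 1.84 FPKM in OXrPPR1 (log2 fold change 1.58 ± 0.15, SE, adjusted p = 0.00649). AT3G23510, a cyclopropane-fatty-acyl-phospholipid synthase, had 5.68, 4.68 and 4.095 FPKM in OXmiR400, against 1.15, 1.14 and 1.05 FPKM in OXrPPR1 (log2 fold change 1.45 ± 0.16, SE, adjusted p = 0.0135). Wild type lay near OXrPPR1 in both, at 1.02 to 2.002 FPKM and 0.674 to 1.03 FPKM.

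The remaining called loci were near 0 FPKM in some libraries. The noncoding RNA AT3G05945, at 11510090 to 11510510 on the minus strand of chromosome 3, had 75.9, 77.55 and 64.1 FPKM in OXmiR400, against 1.15, 0.583 and 1.17 FPKM in OXrPPR1, and 49.6, 45.5 and 53.8 FPKM in wild type (log2 fold change 5.23 ± 0.16, SE, adjusted p = 2.27e-06). AT3G29644, which was lower, lies 8665 bases from it, and the noncoding RNA AT3G05955, which was higher, 75494 bases away on the other side. AT3G05955 had 6.25, 5.02 and 6.41 FPKM in OXmiR400, against 0.131, 0.587 and 0.739 FPKM in OXrPPR1 (adjusted p = 0.00505).

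On chromosome 1, AT1G66820, a glycine-rich protein gene, had 27.1, 25.35 and 21.25 FPKM in OXmiR400 and was listed at 0 in the 3 OXrPPR1 libraries (adjusted p = 2.44e-06). It overlaps AT1G66830, a leucine-rich repeat kinase gene on the opposite strand, by 730 bases. AT1G66830 had 0.593, 0.347 and 0.227 FPKM in OXmiR400, against 5.42, 6.17 and 5.09 FPKM in OXrPPR1 (log2 fold change -2.245 ± 0.17, SE, adjusted p = 0.00142). The pair was exclusive in every library: wild type replicate 1 had 25.4 FPKM of AT1G66820 and 0.133 FPKM of AT1G66830, and wild type replicates 2 and 3 had 0 of AT1G66820 with 5.78 and 6.01 FPKM of AT1G66830. Without strand information, reads from the overlap cannot be assigned to either gene.

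The calls differed in how far they rested on single libraries. Leaving out each of the 6 libraries in turn, 12 of the 24 calls were kept in every fit, those of both MIR400 entries, AT3G01345, AT3G05945, AT1G66820, AT1G66830, PPR1, AT3G05170, SDI1, BGLU28, AIR1 and AT4G12545. MRD1 and AT3G05955 lost their calls without OXmiR400 replicate 1 (adjusted p = 0.0606 and 0.0732), and AT3G29644 and AT3G02620 when OXmiR400 replicate 1 or 2 was omitted (highest adjusted p 0.0988 and 0.0748). BCA3, MSRB5, EXT3, TIP4;1 and AT3G23510 lost theirs without any 1 OXmiR400 library (adjusted p up to 0.105, 0.199, 0.0925, 0.0870 and 0.0995). AT1G04647 was called only without OXrPPR1 replicate 1 or 3, SULTR1;1 only without OXrPPR1 replicate 1, and GSTL1 in none of the 6 (adjusted p up to 0.0923, 0.280 and 0.182). Omitting an OXmiR400 library left 12, 16 or 19 calls (replicate 1, 2 or 3), and omitting an OXrPPR1 library left 43, 31 or 51. With all 9 libraries in 1 fit, 12 of the 24 calls were kept, and no member of the sulfate list was called (adjusted p = 0.140 for SDI1 and 0.298 for BGLU28).

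Apart from PPR1, no tested gene with a site complementary to miR400 was called. Sites were scored with 1 per mismatch and 0.5 per G-U pair, doubled at positions 2 to 13 of the microRNA, with no gaps and a limit of 4. Of 24 loci with such a site, MIR400 left out, 23 have a product named for pentatricopeptide or tetratricopeptide repeats or RNA processing, 23 hold the site in coding sequence and 16 lie on chromosome 1. Of the 18 tested apart from PPR1, 0 were called in either direction, and the smallest adjusted p was 0.681. Their median log2 fold change was 0.02, with a range of -0.24 to 0.35, and 8 lay below 0. Their line means ran from 1.11 FPKM (AT1G64583, OXmiR400) to 5.675 FPKM (AT2G06000, OXrPPR1). At such low levels the log2(FPKM + 1) scale understates changes. The lines did not overlap in 0 of them with OXmiR400 lower and in 3 with OXmiR400 higher, beside 7.31% and 5.94% of all genes tested.

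AT3G22470, with 2 unpaired or wobble bases in its site, had a log2 fold change of -0.24, and AT1G62590, also with 2, stood at 0.06. RPF2 and RPF3, PPR genes that act in processing of mitochondrial transcripts, stood at 0.18 and 0.04. The largest positive value was that of EMB2745, at 0.35 ± 0.17 (SE). Among genes with pentatricopeptide or PPR in their product name, 198 were tested, and the median was 0.01. PPR genes named otherwise are not in this set. Of these, 0 were called higher and 1 lower, which was PPR1, the gene raised in OXrPPR1. These are transcript levels, and protein was not measured here.

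**Figure D4:**
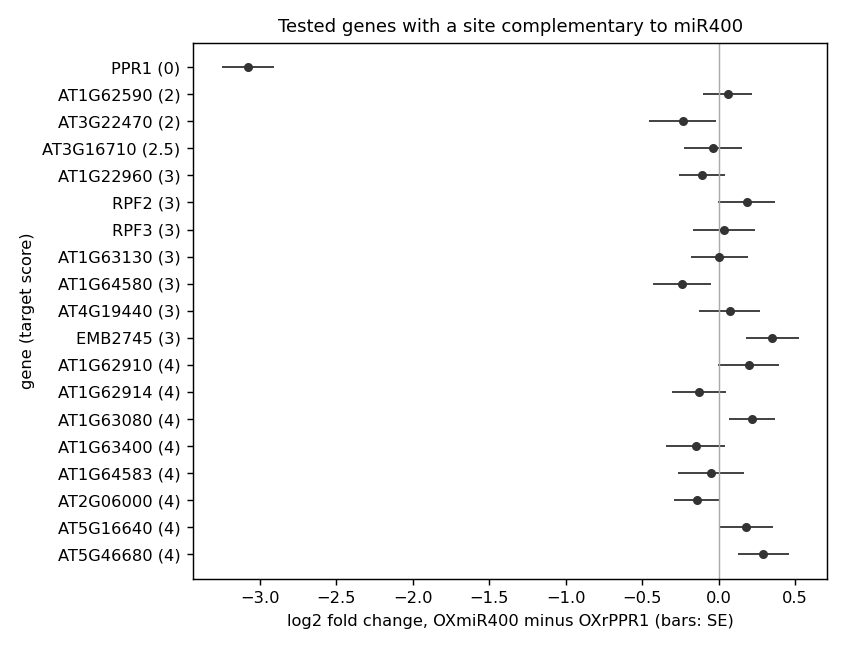
Log2 fold change (OXmiR400 minus OXrPPR1, horizontal axis) of the 19 tested genes with a site complementary to miR400, ordered from the most complementary (score in parentheses, 0 is perfect); bars are standard errors. PPR1, the gene raised in OXrPPR1, stands at -3.08, and the other 18 lie between -0.24 and 0.35.

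Organelle transcripts and their cofactors, the compartment where PPR proteins act, gave no call. All 87 tested plastid genome transcripts lay above 0, with a median of 0.46 and 0 called. In 8 of them, 9.2%, OXmiR400 was higher with no overlap, near the 5.94% of all genes tested. They share a source and scale. ATCG00700 had 16.5, 8.64 and 15.5 FPKM in OXmiR400, against 6.46, 4.56 and 6.78 FPKM in OXrPPR1 (adjusted p = 0.342). Plastid loci took 0.274%, 0.111% and 0.193% of the library total in OXmiR400, against 0.121%, 0.0959% and 0.135% in OXrPPR1 and 0.300% to 0.460% in wild type. The lines overlapped (exact two-sided permutation p = 0.3, where 3 against 3 can give no less than 0.1). The median of the plastid transcripts depended on single OXmiR400 libraries. It fell to 0.18 without replicate 1 and rose to 0.69 without replicate 2. Mitochondrial genome transcripts had a median of 0.14 over 46 tested, which was -0.09 without OXmiR400 replicate 1. They took 0.0327%, 0.0142% and 0.0238% of the total in OXmiR400, against 0.0182%, 0.0169% and 0.0244% in OXrPPR1 (exact two-sided permutation p = 0.7). Libraries of this kind select polyadenylated RNA, so these shares may not follow total organelle RNA, and editing itself cannot be read from expression values.

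The 6 tested organelle RNA editing cofactors had a median of 0.004, with 0 called and overlapping lines in each. MORF9, a plastid cofactor, had 70.2, 67.4 and 64.4 FPKM in OXmiR400, against 58.1, 66.3 and 56.2 FPKM in OXrPPR1. MORF1, a mitochondrial cofactor, averaged 14.6 ± 0.41 FPKM in OXmiR400 and 16.2 ± 3.70 FPKM in OXrPPR1 (SD, n = 3). Alternative oxidase AOX1A, the usual marker of mitochondrial stress signalling, had 48.1, 44.3 and 39.7 FPKM in OXmiR400, against 32.2, 60.5 and 31.9 FPKM in OXrPPR1. Its lines overlapped. The 8 tested genes of the alternative respiratory chain had a median of 0.004, of either sign with 1 library left out (-0.10 to 0.07). The 14 of the mitochondrial retrograde response had one of -0.13, which was -0.27 without OXrPPR1 replicate 1 and -0.07 without replicate 2. Of these 14, 10 lay below 0 and 4 above. In 4, 28.6%, OXmiR400 was lower with no overlap, beside 7.31% of all genes tested. GSTU24, one of them, had 16.4, 16.8 and 16.9 FPKM in OXmiR400, against 24.6, 22.4 and 29.2 FPKM in OXrPPR1 (adjusted p = 0.243). In either list 0 genes were called.

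Of the 18 tested genes on a list of cadmium and metal chelation and transport, 0 were called and the lines overlapped in every one. The median was -0.07, and -0.16 to -0.004 with 1 library left out, and 16 of the 18 lay below 0 and 2 above. HMA2, a heavy metal ATPase, had the lowest log2 fold change, -0.59 (adjusted p = 0.722). PCS1, the phytochelatin synthase listed under the symbol CAD1, had 30.2, 30.1 and 23.9 FPKM in OXmiR400, against 27.6, 24.7 and 22.98 FPKM in OXrPPR1. The vacuolar phytochelatin transporters ABCC1 and ABCC2 had log2 fold changes of 0.01 and -0.23. MT2A, a metallothionein, had 308.5, 277 and 264 FPKM in OXmiR400, against 292, 418 and 344 FPKM in OXrPPR1. Iron deficiency genes had a median of -0.14 over 20 tested, with 0 called, and the sign turned without OXmiR400 replicate 1 (0.09) or OXrPPR1 replicate 2 (0.10). FER1, an iron-storing ferritin, had 55.3, 49.0 and 37.1 FPKM in OXmiR400, against 96.0, 76.5 and 65.8 FPKM in OXrPPR1, with no overlap and no call (adjusted p = 0.354). ZIP2, a zinc and manganese transporter, had 46.6, 47.9 and 39.5 FPKM in OXmiR400, against 96.2, 67.3 and 51.6 FPKM in OXrPPR1 (adjusted p = 0.539).

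No phosphate starvation gene was called. Their median log2 fold change was -0.53 over 22 tested, 20 lay below 0 and in 8, 36.4%, OXmiR400 was lower with no overlap, beside 7.31% of all genes tested. The root markers were lower as well, and their part in these values was not tested. SPX1, a phosphate sensor, had 24.6, 29.4 and 15.5 FPKM in OXmiR400, against 47.1, 51.5 and 72.8 FPKM in OXrPPR1 (log2 fold change -1.28 ± 0.25, SE, adjusted p = 0.261). PAP17, an acid phosphatase, had 19.7, 21.6 and 13.9 FPKM in OXmiR400, against 30.4, 26.8 and 27.8 FPKM in OXrPPR1 (adjusted p = 0.379). OXmiR400 replicate 3 was the lowest library in both, and also in IPS1, a noncoding RNA of the phosphate response, at 1.47 FPKM beside 11.5 and 19.0 FPKM in OXmiR400 replicates 1 and 2, against 16.3, 23.03 and 32.5 FPKM in OXrPPR1.

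Root markers had a median of -0.53 over 15 tested, with 0 called and OXmiR400 lower without overlap in 7, 46.7%, beside 7.31% of all genes tested. PRP3, a root hair cell wall protein gene, had 3.65, 4.61 and 3.44 FPKM in OXmiR400, against 8.79, 8.31 and 13.4 FPKM in OXrPPR1 (adjusted p = 0.116). CASP1, which scaffolds the Casparian strip of the endodermis, had 15.5, 15.7 and 14.4 FPKM in OXmiR400, against 35.9, 17.8 and 25.9 FPKM in OXrPPR1. SHR and SCR, transcription factors of root radial patterning, lay at 0.09 and 0.11, and HKT1, a sodium transporter of the root xylem parenchyma, at 0.73 with no overlap. Class III peroxidases, many of them expressed in roots, had a median of -0.26 over 60 tested with 18 lower without overlap, 30%, beside the same 7.31%, and 0 called. Glutathione S-transferase genes had a median of -0.18 over 48 tested with 10 lower without overlap, 20.8%, beside 7.31%. None was called, GSTL1 standing outside that list by its product name. GSTU27 had 62.7, 58.3 and 63.2 FPKM in OXmiR400, against 84.0, 96.5 and 108 FPKM in OXrPPR1 (adjusted p = 0.167).

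Genes of nitrate reduction and of the leaf were not called either. NIA1, a nitrate reductase, had 203, 154 and 118 FPKM in OXmiR400, against 89.2, 36.3 and 73.3 FPKM in OXrPPR1 (log2 fold change 1.30 ± 0.36, SE, adjusted p = 0.452). NIA2, the other nitrate reductase, had 348, 345 and 276 FPKM in OXmiR400, against 245, 231.5 and 236 FPKM in OXrPPR1. NIR1, nitrite reductase, and NRT3.1, a partner of nitrate uptake transporters, had log2 fold changes of 0.53 and 0.57. The lines did not overlap in these 4 of the 11 nitrate genes tested, 36.4%, beside 5.94% of all genes. Of the 11, 8 lay above 0 and 3 below, with the lowest log2 fold change at -0.888. The list's median was 0.17, and 0.10 and 0.09 without OXmiR400 replicates 2 and 3. Nuclear photosynthesis genes had a median of 0.13 with 28 of 33 above 0, but 0.04 without OXrPPR1 replicate 3 and 0.07 without OXmiR400 replicate 2. Their lines did not overlap, with OXmiR400 higher, in 3 of 33, 9.09%, near the 5.94% of all genes. Chlorophyll synthesis genes had a median of 0.11 with 12 of 14 above 0, and 1 of them was called higher without OXrPPR1 replicate 1. Their lines did not overlap, with OXmiR400 higher, in 4 of 14, 28.6%, beside 5.94% of all genes. CAB3, a light-harvesting protein gene, had 3747, 4922 and 3979 FPKM in OXmiR400, against 3187, 2749 and 2744 FPKM in OXrPPR1 (adjusted p = 0.4999). GUN4, a regulator of magnesium chelatase, had 85.2, 96.1 and 87.3 FPKM in OXmiR400, against 68.8, 51.4 and 64.0 FPKM in OXrPPR1 (adjusted p = 0.325). The summed leaf markers overlapped between the lines.

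**Figure D5:**
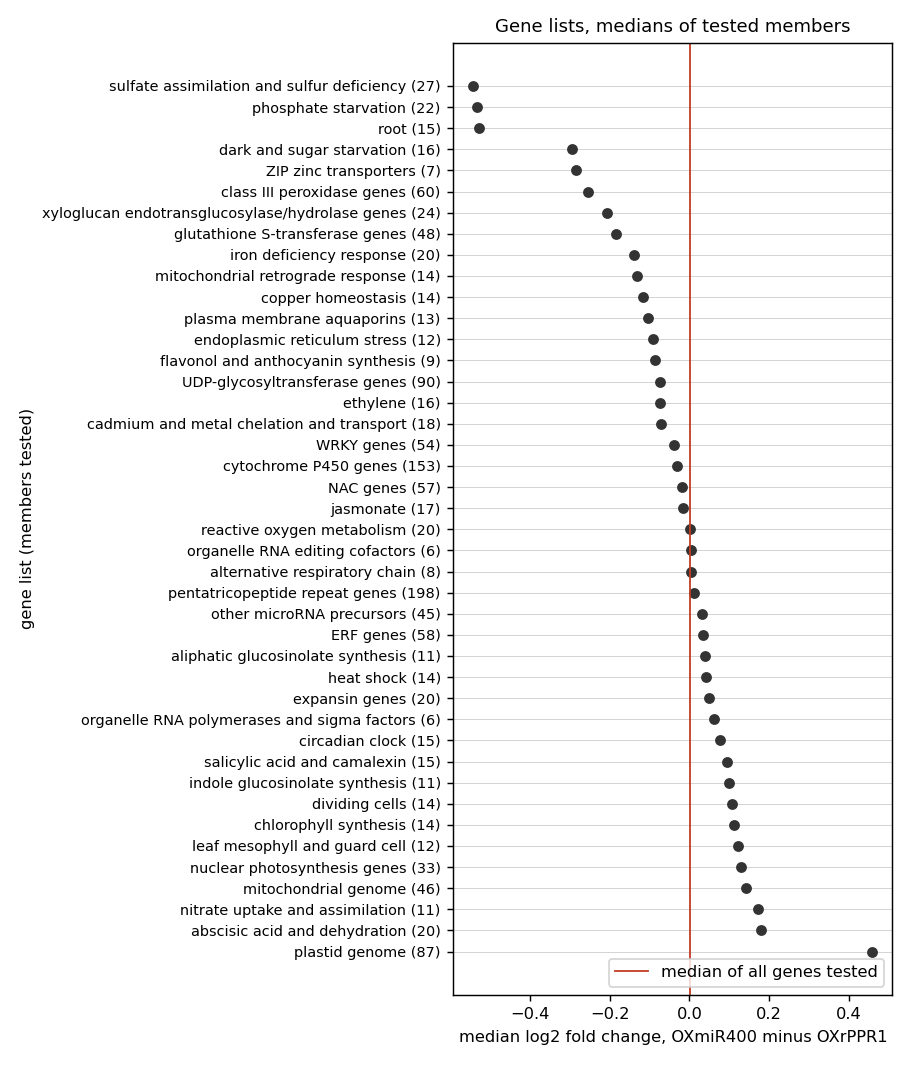
Median log2 fold change (OXmiR400 minus OXrPPR1, horizontal axis) of the tested members of each gene list or family with at least 5 tested, number tested in parentheses; the red line is the median of all genes tested, 0.002. Sulfate, phosphate and root lists lie near -0.5 and the plastid genome at 0.46, at the other end.

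Dark and sugar starvation genes had a median of -0.29 over 16 tested with 0 called, and of -0.17 without OXmiR400 replicate 1, -0.49 without OXmiR400 replicate 3 and -0.47 without OXrPPR1 replicate 3. DIN2 (AT3G60140), a glycosyl hydrolase induced by darkness and sugar starvation, had 8.87, 6.47 and 15.1 FPKM in OXmiR400, against 38.7, 57.0 and 59.4 FPKM in OXrPPR1. Its log2 fold change of -2.29 ± 0.30 (SE) was as large as those of the called sulfur genes, and its adjusted p was 0.0759, and 0.0112 without OXmiR400 replicate 3. It was the only member of that list with lines that did not overlap. Among genes not called with the smallest p on the higher side, CYP710A4, a cytochrome P450 of sterol synthesis, had 4.93, 3.68 and 3.51 FPKM in OXmiR400, against 0.749, 0.975 and 0.0903 FPKM in OXrPPR1 (adjusted p = 0.0759). RD29A, a dehydration and cold marker listed under the symbol LTI78, had 49.5, 43.2 and 36.1 FPKM in OXmiR400, against 34.6, 12.4 and 15.3 FPKM in OXrPPR1 (adjusted p = 0.538). In the lists of heat shock, reactive oxygen metabolism, endoplasmic reticulum stress, ethylene, jasmonate and salicylic acid genes, 0 members were called, and their medians lay between -0.09 and 0.09.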

How the data were processed

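The FPKM values are used as deposited by the authors, who normalised them for exon length and library size as judged from the values, since no header names the unit: multiplied by exon length they sum to nearly the same total in each library. The 3 deposited tables are identical, and 1 was used. The submitters' processing notes name GRCm38 and mm10, mouse builds, but 26513 of 26973 genes matched TAIR10.1 (RefSeq), 26504 with the same start and end. The sources used here do not give the aligner, the counter or strand handling. Per the labels' protocols, TRIzol served for RNA isolation and a SMARTER mRNA-Seq kit for the libraries.

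Low values fell on steps of 4 to a unit in 99.4% to 99.8% of cases and on whole units in 58.6% to 62.2% (tolerance 0.05 of a step), so no count model was used. The model covered genes averaging 1 FPKM or more in either line and was fitted in limma 3.58.1 (R 4.3.3) on log2(FPKM + 1), which understates changes of low genes, with trended, robust variances over the 6 libraries. Genes were called at adjusted p under 0.05. Members and gene lists were chosen with earlier results of these data known. Genes named are the 4 label loci, up to 12 called genes per direction (log2 fold change at least 1, mean at least 2 FPKM, a symbol or product name, no overlap) filled with uncalled ones, and list members by p. Noncoding RNAs, AT3G01345 and further list members were picked with their values in view.

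The 16 alternatives were another pseudocount, 2 filters, 2 variance settings, 2 scalings, all 9 libraries, a replicate block, organelle genes left out and each library left out. Same-numbered libraries had deviations correlated at 0.0937, 0.134 and 0.0434, and differently numbered ones at -0.177 to 0.0802. The numbers were not taken as pairs in the main fit, and whether libraries were prepared as pairs is not known here.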

Additional observations from a re-analysis of the deposited data

How the results depend on the processing

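The count of 24 calls (9 higher, 15 lower) stayed within 1.5 times under 9 of the 10 alternatives that left out no library of the lines. With all 9 libraries it was 13, with 5 lower, and 12 of the 24 calls were kept; the cause was not tested. Leaving out 1 library, it ranged from 12 to 51, with 6 to 17 higher and 6 to 35 lower. The replicate block gave 21 calls, with 12 higher and 9 lower, and kept 15 of the 24. No called fold change changed sign. Under every alternative 7 calls were kept: both MIR400 entries, PPR1, AT3G01345, AT3G05170, AT3G05945 and AT4G12545. The sulfate list had 2 to 5 members called lower and 0 or 1 higher (LSU1, without OXrPPR1 replicate 2) when 1 library was left out, and its median ranged from -0.69 to -0.42. The replicate block also called 4 plastid genome transcripts higher, and leaving out OXrPPR1 replicate 2 called 1 class III peroxidase lower.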

Other observations

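Leaving out 1 library brought in 61 genes not called with all 6, of which 29 came in without OXrPPR1 replicate 3, 20 without OXrPPR1 replicate 1 and 10 without OXrPPR1 replicate 2. The genes below were chosen after their values were seen. AT3G05400, a major facilitator superfamily gene, had 8.45, 9.60 and 8.76 FPKM in OXmiR400, against 19.2, 29.5 and 19.9 FPKM in OXrPPR1. It had an adjusted p of 0.0506 over all 6 libraries and was called without any 1 of the OXrPPR1 libraries. PYD4 (AT3G08860), a gene of pyrimidine breakdown, had 20.6, 19.97 and 22.3 FPKM in OXmiR400, against 51.2, 83.0 and 49.0 FPKM in OXrPPR1. It was called without OXrPPR1 replicate 2 or 3.

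Other such genes differed strongly among the OXrPPR1 libraries. AT3G02790, a zinc finger gene, had 69.3, 61.6 and 64.6 FPKM in OXmiR400, against 51.1, 0 and 0 FPKM in OXrPPR1 and 46.05, 49.5 and 0 FPKM in wild type. AT1G49500 had 112.5, 182 and 151 FPKM in OXmiR400, against 2.07, 148 and 0.618 FPKM in OXrPPR1. AT5G37990, a methyltransferase family gene, had 48.4, 62.3 and 45.9 FPKM in OXmiR400, against 259, 245 and 17.35 FPKM in OXrPPR1. HEI10, which overlaps MRD1, had 0.917, 0.985 and 0.631 FPKM in OXmiR400, against 5.36, 27.6 and 35.1 FPKM in OXrPPR1.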
